A study of Mus musculus with 4 samples.

Results

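This account covers 7 genes of intestinal host defence that are not alpha-defensins: Lyz1, Mptx2, Ang4, Itln1, Reg3b, Reg3g and Mmp7. They were taken by their symbols from the 31054 features that each of 4 single-cell matrices lists, and all 7 were present. The cells are labelled as mouse intestinal epithelium, although some clusters had markers of other tissues. They were isolated by flow sorting, and their RNA was measured in droplets with a kit that reads the 3' end of each transcript. All mice carried the Bmi1-GFP reporter, in which a fluorescent protein is made from the Bmi1 locus. Each of 4 groups was represented by 1 library: fetuses at E12.5, fetuses at E17.5, adults without treatment, and adults after irradiation. For the last group the labels state neither dose nor delay, and for no group do they state how many animals were pooled, their sex or the gate used. The reporter is carried by every group, the controls included.

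Paneth cells sit at the base of small-intestinal crypts and fill their granules with antimicrobial proteins. The alpha-defensins are the best known of these. Lyz1 encodes a lysozyme that cuts the bacterial cell wall, Mptx2 a pentraxin, Ang4 a ribonuclease of the angiogenin family and Itln1 a lectin that binds microbial sugars. Mmp7 encodes matrilysin, the protease that cuts mouse pro-alpha-defensins into their active form. Reg3b and Reg3g encode C-type lectins that are secreted by several epithelial cell types, and their transcripts are known to increase with microbial and inflammatory signals. Paneth cells are absent from the early fetal mouse gut and mature after birth.

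In the GENCODE M21 annotation of GRCm38 the 7 genes are protein coding and lie on chromosomes 1, 6, 9, 10 and 14. Reg3b (ENSMUSG00000071356, chr6:78370657-78373466, plus strand) and Reg3g (ENSMUSG00000030017, chr6:78466269-78468872, minus strand) lie in 1 cluster of Reg genes, 92802 bases apart, with Reg3d and Reg3a between them. The others are Lyz1 (ENSMUSG00000069515, chr10:117287797-117292868), Itln1 (ENSMUSG00000038209, chr1:171518122-171535294), Mptx2 (ENSMUSG00000079180, chr1:173274382-173277777), Ang4 (ENSMUSG00000060615, chr14:51763878-51773590) and Mmp7 (ENSMUSG00000018623, chr9:7692090-7699585). Lyz1 lies 5475 bases from Lyz2, a close copy, and Mptx2, Ang4 and the Reg3 genes also have close relatives, so reads could have been split or lost between copies.

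The start regions of Reg3b and Reg3g are shown because both genes were higher after irradiation in several cell types, and that of Mmp7 for contrast. Sequences are from RefSeq (GRCm38.p6), 5′ to 3′ on the strand of the gene, from 250 bases before the annotated start to 30 bases after it. The regions are chr6:78370635-78370914 for Reg3b, chr6:78468845-78469124 for Reg3g and chr9:7691840-7692119 for Mmp7. Another annotated Reg3b transcript starts inside the Reg3b window. Capitals in the Reg3 sequences mark aligned runs of at least 8 identical bases, and capitals in Mmp7 mark ATCAAAG, the letters of the TCF/LEF motif.
Reg3b: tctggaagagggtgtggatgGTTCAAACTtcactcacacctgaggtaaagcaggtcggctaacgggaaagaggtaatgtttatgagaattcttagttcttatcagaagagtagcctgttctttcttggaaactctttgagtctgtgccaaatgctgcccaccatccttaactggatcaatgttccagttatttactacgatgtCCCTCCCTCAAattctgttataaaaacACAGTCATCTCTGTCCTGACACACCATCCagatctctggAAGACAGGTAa
Reg3g: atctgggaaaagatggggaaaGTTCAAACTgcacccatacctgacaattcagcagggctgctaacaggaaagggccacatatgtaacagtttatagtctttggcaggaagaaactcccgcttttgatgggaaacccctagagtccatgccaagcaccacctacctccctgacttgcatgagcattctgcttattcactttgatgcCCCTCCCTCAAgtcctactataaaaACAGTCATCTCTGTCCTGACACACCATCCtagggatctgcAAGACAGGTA
Mmp7: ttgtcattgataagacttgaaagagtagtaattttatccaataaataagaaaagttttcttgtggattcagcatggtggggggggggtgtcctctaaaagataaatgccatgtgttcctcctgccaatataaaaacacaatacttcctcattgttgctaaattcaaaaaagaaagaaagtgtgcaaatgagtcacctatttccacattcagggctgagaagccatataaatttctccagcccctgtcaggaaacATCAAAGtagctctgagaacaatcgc

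Reg3b and Reg3g shared 210 identical bases when their windows of 300 bases were aligned end to end, against 151 to 166 for the other 20 pairs of the 7 genes. Their longest identical run was 29 bases and spans the start. TATAAA on the sense strand began 29 bases before the start in Reg3b and 27 bases before it in Reg3g. Both strands of all 32851 promoter windows of 300 bases were searched: TATAAA was in 13.6%, ATCAAAG in 3.73% and TTCNNNGAA, the STAT motif, in 8.30%. In Mmp7, ATCAAAG began 4 bases after the start. Reg3g also held ATCAAAG, on the opposite strand 54 bases before the start, and Reg3b held TTCNNNGAA 129 bases before it. Mmp7 held TATAAA 26 and 123 bases before the start and Ang4 held TTCNNNGAA 192 bases before it, and Lyz1, Mptx2 and Itln1 held none of the 3. Such matches describe letters and are not measured binding sites.

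Cells with 500 or more detected genes and no more than 20% mitochondrial UMIs were used: 4226, 4602, 3788 and 3184 in the order of the groups above. A UMI is a molecular identifier that stands for 1 captured RNA molecule. The median depth was 18637.5, 11499, 3699.5 and 8786 UMIs per cell, and 6 to 12 barcodes were shared by any pair of libraries. Clusters were named from marker lists, with the 7 genes left out of the clustering, and putative doublets were kept as a group of their own. The Paneth marker list named clusters in the adult (216 cells) and the irradiated adult (95 cells) and no fetal cluster, although an E17.5 cluster led by the alpha-defensins Defa24 and Defa17 held some cells with many alpha-defensin UMIs. Enteroendocrine-like cells were 58.6% of the adult and 63.2% of the irradiated library and tuft-like cells 25.7% and 14.5%. At E17.5 the marker lists also named 533 pancreatic acinar-like, 139 islet-like, 119 mesenchymal-like, 119 smooth muscle-like and 22 mesothelial-like cells. At E12.5 they named 36 mesenchymal-like cells. All of these count in the library totals. The adult Paneth-like class joins a deep cluster of 73 cells (median 30480 UMIs) and a shallow one of 143 cells (median 1926 UMIs), so the deep cluster is also given alone. Levels are UMIs per 1000000 of a library or class (CPM), with exact Poisson 95% intervals. Shares carry Clopper-Pearson intervals, and neither covers more than counting error. Because each group is a single library, no difference between groups has a replicate check, and no test was made.

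At E12.5 the 7 genes were close to absent. Lyz1 had 6 UMIs in 89064972 (0.0674 CPM, 95% interval 0.0247 to 0.147) and Mptx2 had 2 UMIs. Ang4, Itln1, Reg3b, Reg3g and Mmp7 had none, which allows up to 0.0337 CPM by the count of 3 UMIs. At E17.5 the order changed to Reg3b at 37.7 CPM (2903 UMIs, 36.4 to 39.1), Lyz1 at 9.54 (734 UMIs, 8.86 to 10.3), Ang4 at 5.34, Reg3g at 3.20 and Mmp7 at 1.77 CPM. Itln1 had 17 UMIs (0.221 CPM) and Mptx2 had 1. The lectin Reg3b was thus the most abundant of the set before birth, and the Paneth pentraxin Mptx2 was at the same near-zero level as at E12.5.

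In the untreated adult the Paneth granule genes led. Lyz1 was at 4352 CPM, Itln1 at 3371, Ang4 at 1091 and Mptx2 at 849.8 CPM, above Reg3b at 296, Mmp7 at 163 and Reg3g at 124 CPM. In the irradiated adult Lyz1 was at 11288 CPM, Itln1 at 7910.1, Mptx2 at 1279, Ang4 at 954, Reg3g at 794, Reg3b at 734 and Mmp7 at 664 CPM. All neighbours in these orders are separated by more than their counting intervals within each adult library. Ang4 went from the third place to the fourth and Reg3g from the last to the fifth, while Lyz1 and Itln1 kept their places at the top.

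**Figure D1:**
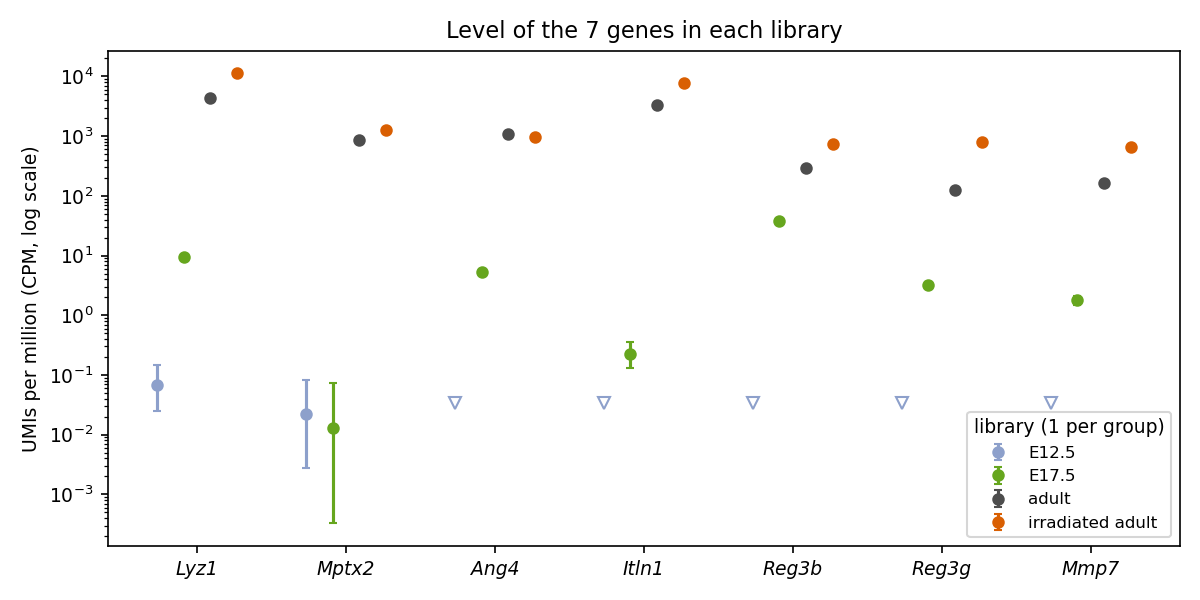
Level of the 7 genes (horizontal axis) in CPM, on a log scale, in the 4 libraries; bars are exact Poisson 95% intervals and open triangles mark the level of 3 UMIs where none was counted. Mptx2 has 2 UMIs at E12.5 and 1 at E17.5 and reaches 849.8 CPM in the adult, while Reg3b is at 37.7 CPM already at E17.5.

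Between the 2 fetal libraries, 5 of the 5 genes that reached 50 UMIs in one of them were at least 2-fold higher at E17.5, as were 15.9% of 14607 genes. The comparison used the log2 ratio of CPM with 1 CPM added. Reg3b was at least 1120.35-fold higher, Ang4 at least 159-fold, Reg3g at least 94.9-fold and Mmp7 at least 52.5-fold, each against 3 UMIs over the E12.5 library. The lower limits of the 95% counting intervals were smaller, at 911, 128, 76.6 and 42.1. The Lyz1 ratio was 142 (95% interval 64.8 to 387). Itln1 was at least 6.56-fold higher on the same basis (lower 95% limit 4.78) but below the minimum of 50 UMIs, and for Mptx2 no ratio can be given. With 10 CPM added in place of 1, only 1 of the genes passed 2-fold, since the others stayed below 10 CPM.

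Between E17.5 and the adult, 7 of 7 were at least 2-fold higher, against 14.1% of 14099 genes. The rises in CPM were 456-fold for Lyz1 (424 to 491), 204-fold for Ang4 (185 to 226), 92.4-fold for Mmp7 and 15254-fold for Itln1 (9527 to 26186). For Mptx2 the ratio of 27117 UMIs to 1 was 65375 with a counting interval from 11732.5 to 2582270. Reg3g and Reg3b changed least, 38.9-fold for Reg3g (34.2 to 44.4) and 7.83-fold for Reg3b (7.51 to 8.17). Under a stricter cell filter (1000 genes, 10% mitochondrial UMIs) the Reg3b log2 ratio dropped from 2.94 to 0.96, below the 2-fold line. With each cell's CPM averaged in place of summed UMIs, the log2 ratios dropped from 8.69 to 6.57 for Lyz1, from 7.43 to 5.32 for Ang4, from 5.89 to 4.25 for Mmp7 and from 11.43 to 9.74 for Itln1. Those of Mptx2, Reg3g and Reg3b dropped from 9.71 to 8.01, from 4.90 to 3.44 and from 2.94 to 1.37, and all 7 stayed above 2-fold. The cell classes sampled also differ between these libraries, and fewer cells of a type and less RNA per cell cannot be told apart in a library sum.

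Between the adult and the irradiated adult, 5 of 7 genes were at least 2-fold higher and 0 lower, against 3.07% of 12913 genes higher and 5.33% lower. The largest ratios were for Reg3g (6.38-fold, 6.18 to 6.60) and Mmp7 (4.07-fold, 3.95 to 4.19). Lyz1 was 2.59-fold higher (2.58 to 2.61), Reg3b 2.48-fold and Itln1 2.35-fold. Mptx2 was at 1.51 times its adult level and Ang4 at 0.875 times (0.862 to 0.888). With each cell's CPM averaged in place of summed UMIs, 3 genes passed 2-fold (Reg3b, Reg3g and Mmp7), the log2 ratios of Lyz1 and Itln1 dropped to 0.91 and 0.77, and that of Mptx2 turned from 0.59 to -0.36. With the stricter cell filter the Itln1 log2 ratio was 0.92, and those of Reg3b and Reg3g grew from 1.31 and 2.66 to 2.73 and 3.78. The classes sampled differ here too. Paneth-like cells held 12.4% of the adult and 17.3% of the irradiated UMIs. Goblet-like cells held 4.58% of the irradiated UMIs, and no adult cluster took that name. In these sums, more cells of a type and more RNA per cell cannot be told apart.

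The 5 granule genes were concentrated in Paneth-like cells. In the adult, 94.5% of all Lyz1 UMIs, 93.9% of Mptx2, 93.8% of Itln1, 92.5% of Ang4 and 92.7% of Mmp7 UMIs came from this class, which held 12.4% of the UMIs of the library. After irradiation the share was 98.6% for Mptx2 and 93.0% for Lyz1, but 85.9% for Itln1, 82.3% for Mmp7 and 76.2% for Ang4. Reg3b and Reg3g were distributed otherwise. Reg3b UMIs came to 93.2% from the adult enterocyte-like cells and to 1.36% from the Paneth-like cells, and after irradiation to 68.2% and 19.1%. For Reg3g the adult shares were 79.4% enterocyte-like and 14.2% Paneth-like, and the irradiated shares 28.3% and 61.3%.

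**Figure D2:**
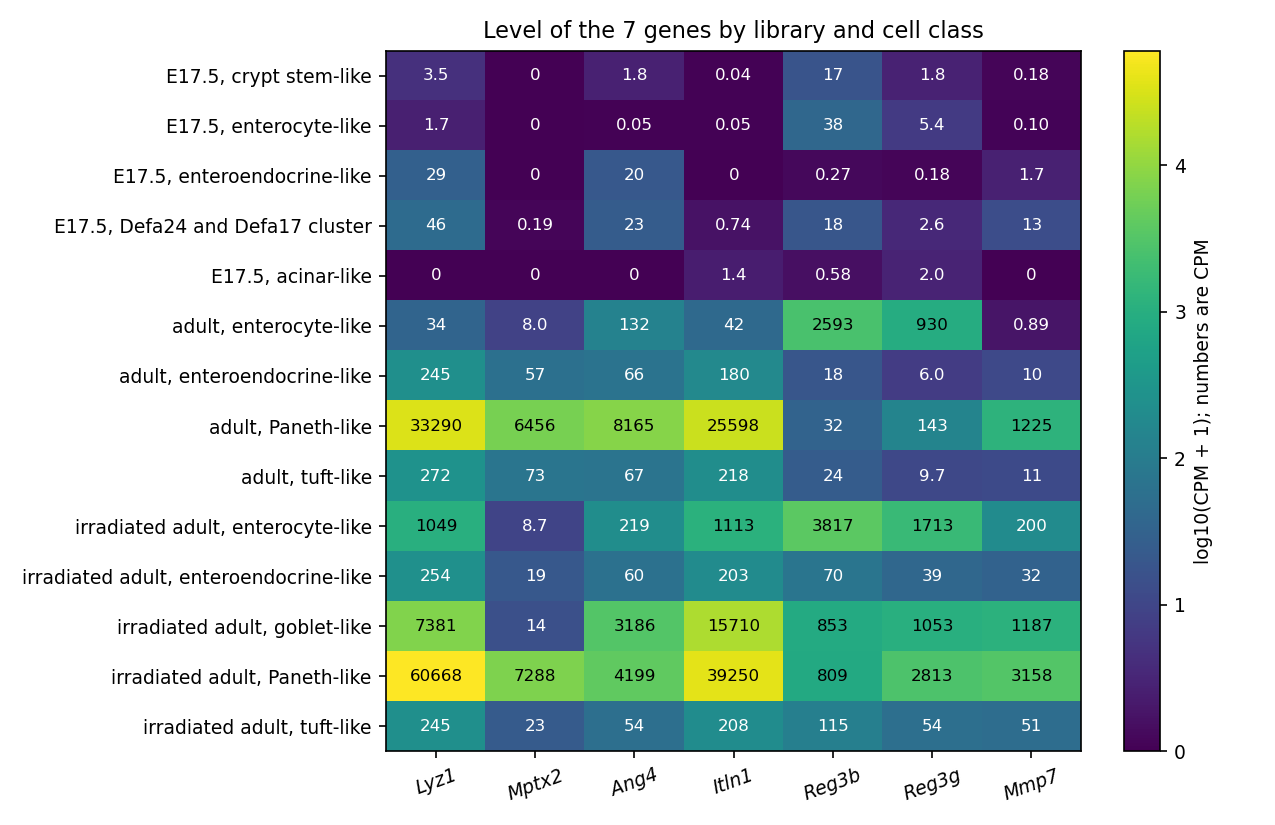
CPM of the 7 genes (columns) in the main cell classes of 3 libraries (lines of the grid); the colour is log10(CPM + 1) and the number in each field is the CPM. The Paneth-like lines hold the highest Lyz1 and Itln1 levels and the enterocyte-like lines of both adult libraries the highest Reg3b levels.

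Within the deepest Paneth-like cluster the genes did not move alike. Lyz1 went from 36561 CPM in the adult to 60668 CPM after irradiation, a ratio of 1.66 (1.65 to 1.67). Itln1 went from 27825 to 39249.7 CPM (a ratio of 1.41), and Mptx2 from 7078 to 7288 CPM (1.03). Ang4 was lower, at 8851 and 4199 CPM, a ratio of 0.474 (0.467 to 0.482). Mmp7, the defensin-processing protease, went from 1325 to 3158 CPM (2.38, 2.31 to 2.46). Of the 7 genes, 3 were at least 2-fold higher and 1 was at least 2-fold lower, against 7.66% and 10.2% of 4349 genes. Over the whole Paneth-like class 3 were higher and 0 lower, against 4.44% and 21.1% of 4554 genes.

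Reg3b and Reg3g showed the largest ratios in these cells. Reg3g went from 151 to 2813 CPM, a ratio of 18.7 (17.1 to 20.4), and Reg3b from 107 UMIs (24.6 to 36.2 CPM) to 809 CPM, a ratio of 27.0 (22.3 to 33.0). The adult Reg3b value rests on few cells, since 65 of 73 cells had none and 5 cells held 97.2% of those UMIs. After irradiation 15 of 95 cells had none and 5 cells held 43.7% of 5796 UMIs. The 2 clusters differ in depth (median 30480 and 98803 UMIs), so each cell was also thinned to 2000 UMIs. A Reg3b UMI was then found in 1 of 73 adult cells (1.37%) and in 37 of 91 irradiated cells (40.7%), and unthinned in 8 of 73 and 80 of 95. In tuft-like cells, set beside them for comparison, the thinned shares were 5.10% and 16.4% (unthinned 9.54% and 47.3%, median depth 4114 and 7384 UMIs). The adult Paneth-like share was no higher than the tuft-like share, and the irradiated one was above it.

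**Figure D3:**
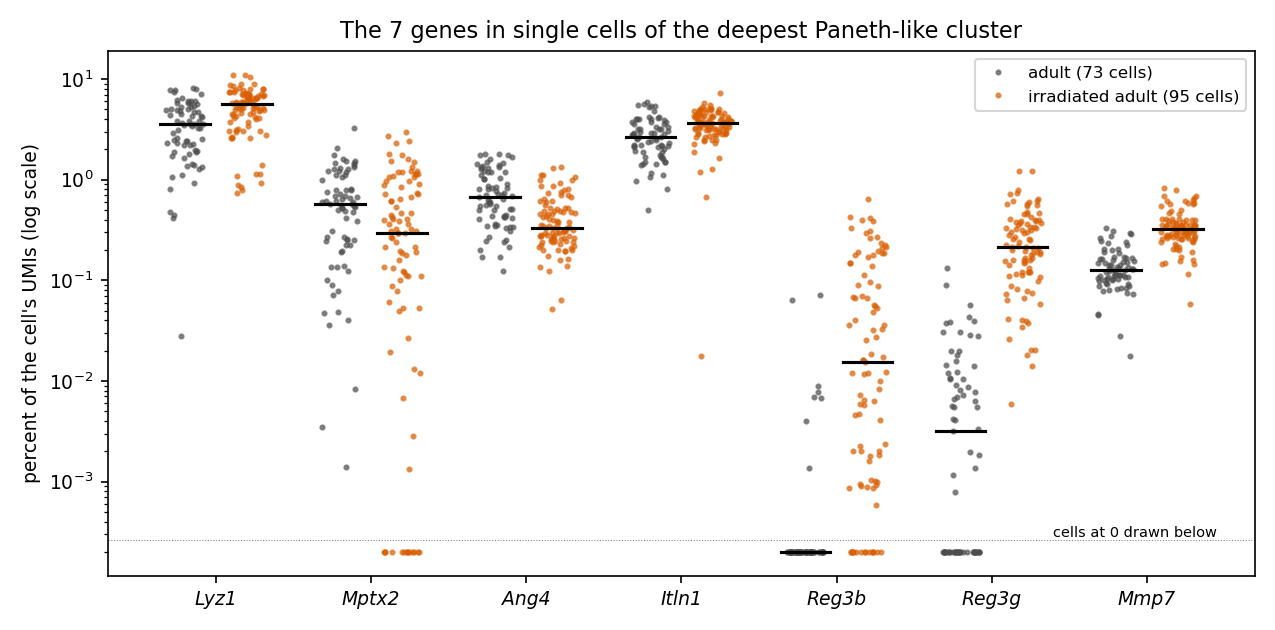
Percent of a cell's UMIs (log scale) taken by each of the 7 genes in the deepest Paneth-like cluster, 1 point per cell, for 73 adult and 95 irradiated adult cells; black lines are medians, and cells without a UMI are drawn below the dotted line. The Reg3g median lies at 0.0032% in the adult and 0.213% after irradiation, and most adult cells have no Reg3b.

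Cell by cell, Lyz1 took a median of 3.56% of the UMIs of a deep adult Paneth-like cell (lowest 0.0278%, highest 8.19%) and 5.68% after irradiation (0.736% to 11.1%). Itln1 took 2.64% and 3.71%. The Mmp7 median rose from 0.128% to 0.325%, and 90% of adult cells were below 0.240% while 90% of irradiated cells were above 0.200%. The Ang4 median was 0.676% in the adult and 0.334% after irradiation. The Mptx2 median went from 0.572% to 0.299%. Mptx2 had no UMI in 0 of 73 adult cells and 14 of 95 irradiated cells. Those 14 cells had a median of 3117 UMIs, and 10 of them were under 5000 UMIs, as were 16 irradiated and 4 adult cells in all. The other 4 of the 14 had at least 5000 UMIs, the deepest 74300. Whether depth accounts for the cells without Mptx2 was not tested. Thinned to 2000 UMIs, Mptx2 was in 91.8% of 73 adult and 80.2% of 91 irradiated cells. The summed level of Mptx2 was nearly equal in both (ratio 1.03), and 5 cells held 36.5% of its UMIs in the adult and 30.5% after irradiation. For each of the 7 genes the ranges of the cells overlapped.

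At 2000 UMIs per cell, 64.4% of the 73 adult cells showed 5 of the 7 genes and 0 showed all 7. Of 91 irradiated cells, 53.8% showed 6 and 28.6% all 7. Across the 95 irradiated cells the Spearman correlation of Reg3b with Reg3g was 0.53, that of Lyz1 with Itln1 0.40 and that of Lyz1 with Reg3g -0.36. In the 73 adult cells Lyz1 and Itln1 had 0.46 and Lyz1 and Reg3g 0.22. These are descriptions across cells of 1 library, whose shares of UMIs sum to a fixed total.

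Alpha-defensins took 65.3% of the UMIs of the deep adult cluster and 67.1% of the irradiated one, so CPM in these cells depends on them. With alpha-defensins and the 7 genes taken out of the total, an alternative chosen after the values had been seen, the log2 ratios in the deepest cluster grew from 0.73 to 1.07 for Lyz1, from 1.25 to 1.59 for Mmp7 and from 4.21 to 4.56 for Reg3g. That of Ang4 went from -1.08 to -0.74, which is under 2-fold. With the shallow adult cluster included, the Paneth-like log2 ratios were 0.87 for Lyz1, -0.96 for Ang4, 4.60 for Reg3b and 4.29 for Reg3g. With alpha-defensins and the 7 genes out of the total, those of this whole class were 1.49 for Lyz1 and -0.33 for Ang4, that of Itln1 went from 0.62 to 1.24 and that of Mmp7 from 1.37 to 1.99, so that 5 genes passed 2-fold in place of 3. Bmi1 itself was at 3.08 CPM in the adult and 3.21 CPM in the irradiated deep cluster, against 15.8 and 20.2 CPM in enteroendocrine-like cells.

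The shallow adult Paneth-like cluster held less of each granule gene. Lyz1 was at 2256 CPM, Itln1 at 4469, Ang4 at 1655, Mptx2 at 556 and Mmp7 at 271 CPM, with alpha-defensins at 97923 CPM against 652548 CPM in the deep cluster. Per 100 alpha-defensin UMIs, Itln1 stood at 4.56 in the shallow and 4.26 in the deep cluster, Ang4 at 1.69 and 1.36, and Mmp7 at 0.277 and 0.203. Lyz1, at 2.30 and 5.60, and Mptx2, at 0.568 and 1.08, were lower in the shallow cluster on this scale as well.

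Low counts of the granule genes were found in all adult cell types. In adult enteroendocrine-like cells Lyz1 was at 245 CPM, Itln1 at 180.3, Ang4 at 66.3, Mptx2 at 56.5 and Mmp7 at 10.2 CPM, and in tuft-like cells at 272, 218, 67.3, 72.7 and 11.04 CPM. After thinning, 41.6% of enteroendocrine-like cells and 40.5% of tuft-like cells had a Lyz1 UMI (unthinned 69.5% and 65.8%, median depth 3191 and 4114 UMIs). Lyz1 stood at 5.55 UMIs per 100 alpha-defensin UMIs in Paneth-like, 5.04 in enteroendocrine-like and 4.84 in tuft-like cells. Mptx2 stood at 1.08, 1.16 and 1.29, Ang4 at 1.36, 1.36 and 1.20, Itln1 at 4.27, 3.70 and 3.88, and Mmp7 at 0.204, 0.209 and 0.196. In adult enterocyte-like cells the ratios were further from the Paneth-like ones for Ang4, at 20.04, and less so for Itln1, at 6.35, Lyz1, at 5.15, Mptx2, at 1.21, and Mmp7, at 0.134, and 5 cells held 94.9% of the Ang4 UMIs of that class. The part of free RNA in the levels outside Paneth-like cells was not tested. Reg3b, at 0.00541, 0.369 and 0.419, and Reg3g, at 0.0239, 0.124 and 0.173, did not keep the Paneth-like ratio. From E17.5 to the adult 7 of 7 genes were at least 2-fold higher in enteroendocrine-like cells, against 11.7% of 11349 genes higher and 9.67% lower.

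In the irradiated library the ratios of these 3 classes were near each other for Lyz1, at 9.04, 9.70 and 9.06. Itln1 stood at 5.85, 7.76 and 7.67 and Mptx2 at 1.09, 0.743 and 0.840. The ratios lay further apart for Ang4, at 0.626 in Paneth-like, 2.31 in enteroendocrine-like and 2.01 in tuft-like cells, and for Mmp7, at 0.471, 1.21 and 1.87. Reg3g stood at 0.419, 1.49 and 1.99 and Reg3b at 0.121, 2.69 and 4.26. Between the adult and irradiated enteroendocrine-like cells 3 of the 7 genes were at least 2-fold higher (Reg3b, Reg3g and Mmp7) and 1 lower (Mptx2, 56.5 to 19.4 CPM), against 1.64% and 2.54% of 11532 genes. In tuft-like cells the same genes passed in the same directions, against 17.1% and 2.57% of 8203 genes.

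**Figure D4:**
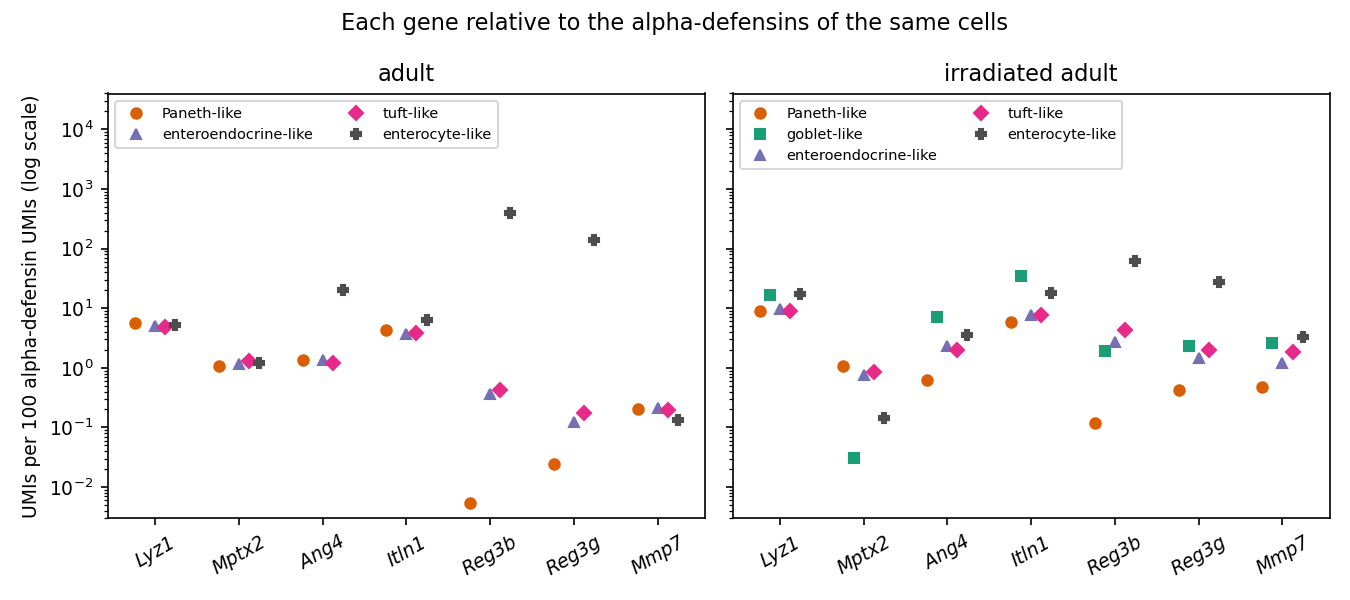
UMIs of each gene per 100 alpha-defensin UMIs (log scale) by cell class in the adult (left) and irradiated adult (right). In the adult the Paneth-like, enteroendocrine-like and tuft-like points of Lyz1, Mptx2, Ang4, Itln1 and Mmp7 lie nearly on each other, and the enterocyte-like points of Reg3b and Reg3g stand far above.

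Single enteroendocrine clusters of the irradiated library differed from the other endocrine clusters in these ratios; they were chosen after their values had been seen. In cluster 8 (173 cells, led by Gcg and Ghrl, the genes of proglucagon and ghrelin) Ang4 was at 208 CPM (191 to 225), or 12.9 per 100 alpha-defensin UMIs, where the 8 other enteroendocrine-like clusters had 1.09 to 1.44. A UMI of Ang4 was in 77 of the 173 cells, and 5 cells held 52.9% of its 584 UMIs. Lyz1 was at 13.1 per 100 in this cluster and at 8.91 to 10.2 in the others. In the adult cluster led by Ghrl and Nts, Ang4 stood at 1.64 per 100 and the other adult enteroendocrine-like clusters at 1.20 to 1.66. In cluster 6 (184 cells, led by Afp, Tac1 and Vim) Mmp7 was at 142 CPM (126 to 159), or 5.81 per 100 alpha-defensin UMIs, against 0.538 to 0.820 in the other 8. It was found in 85 of 184 cells, and 5 cells held 29.1% of its 292 UMIs. Reg3b was at 5.47 per 100 in the same cluster, with 60.7% of its UMIs in 5 cells, and at 2.19 to 2.70 in the others.

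The enterocyte-like cells were the main source of Reg3b and Reg3g in the adult. Their adult levels (86 cells) were 2593 CPM for Reg3b and 930.5 CPM for Reg3g, while Lyz1 stood at 33.9, Itln1 at 41.9, Mptx2 at 7.97 and Ang4 at 132 CPM. Mmp7 had 3 UMIs. Paneth-like cells had Reg3b at 32.5 CPM. The cells differed among themselves: the median cell gave 0.0220% of its UMIs to Reg3b, the highest 3.57%, and 27 had none. Reg3b and Reg3g varied together across the 86 cells (Spearman correlation 0.78). A thinned Reg3b UMI was found in 47.4% of them, against 5.10% of tuft-like cells (unthinned 68.6% and 9.54%, median depth 31659.5 and 4114 UMIs).

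The irradiated enterocyte-like cluster (103 cells) was led by Ccnd1, Apoa4, Ces2e, Prap1 and Ube2c, with 1 class marker among the first 10. Its name is therefore uncertain, and it may not hold the same cells as the adult class. Reg3b was at 3817 CPM and Reg3g at 1713 CPM, ratios of 1.47 (1.44 to 1.51) and 1.84 (1.77 to 1.92) to the adult class. The adult class grew to 187 cells with the 7 genes kept in the clustering, and also at resolution 0.5 with them left out. In both settings the log2 ratios went from 0.56 to 1.86 for Reg3b and from 0.88 to 2.16 for Reg3g. Those of Lyz1, Itln1 and Mmp7 went from 4.91 to 2.38, from 4.70 to 1.99 and from 6.73 to 3.42. That of Mptx2 went from 0.11 to -2.36 (-2.35 at resolution 0.5). The ratios thus depend on which adult cells the class holds. In the irradiated cluster Reg3b was above 0.5% of UMIs in 17 cells and absent in 25, and its median of 0.0039% was below the adult median. The granule genes had much higher sums than in the adult: Lyz1 1049, Itln1 1113 and Mmp7 199.6 CPM. These sums rested on a few cells, since 5 cells held 91.5% of Lyz1, 89.2% of Itln1, 95.9% of Ang4 and 80.9% of Mmp7 UMIs. Without the 3 cells in which Lyz1 took over 0.5% of UMIs, an exclusion chosen after the values had been seen, Lyz1 was at 109 CPM, Itln1 at 412, Mmp7 at 104 and Ang4 at 94.1 CPM. Of the 6 genes with enough UMIs, 3 were at least 2-fold higher and 0 lower, against 17.6% and 9.82% of 8317 genes.

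Goblet-like cells were named only in the irradiated adult among the adult libraries (77 cells, led by Zg16, Clca1, Fcgbp and Muc2). Their sums were 15710.3 CPM for Itln1, 7381 for Lyz1, 3186 for Ang4, 1187 for Mmp7, 1053 for Reg3g and 853 for Reg3b. Mptx2 was at 13.7 CPM, in the range of enteroendocrine-like cells (19.4). Ang4 relative to alpha-defensins was 7.12 per 100, against 0.626 in Paneth-like cells, and Mptx2 was 0.0306 against 1.09. The median goblet-like cell was far lower, at 0.0585% of UMIs for Lyz1 and 0.175% for Itln1. Itln1 was above 0.5% in 29 cells and Lyz1 in 16. Alpha-defensins took 0.715% of UMIs in the median cell and 21.8% in the highest, so cells with few and with many alpha-defensin transcripts stand together here.

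At E17.5 cluster 9 (171 cells) took the goblet marker list, with 5 goblet markers among its 10 leading genes, but Defa24 and Defa17 lead it, so it is called the Defa24 and Defa17 cluster. Alpha-defensins took over 0.5% of UMIs in 34 of its 171 cells and 3.24% in the highest. It held most alpha-defensin UMIs, 14393 or 2677 CPM. Lyz1 was at 46.1 CPM (40.6 to 52.2), Ang4 at 23.4, Reg3b at 17.9, Mmp7 at 12.6, Reg3g at 2.60 and Itln1 at 0.744 CPM. It held 33.8% of the Lyz1 UMIs of the library and 68 of its 136 Mmp7 UMIs. Lyz1 was detected in 40 cells, and 5 of them held 60.1% of its UMIs. Thinned to 2000 UMIs, 80.0% of the cells showed none of the 7 genes and no cell showed more than 1.

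Lyz1 and Ang4 reached similar levels in 3 fetal endocrine clusters. Lyz1 was at 46.1 CPM (37.6 to 55.9) and Ang4 at 43.4 CPM (35.2 to 52.9) in the Cck cluster, at 37.9 and 33.4 CPM in the Gip cluster, and at 49.7 and 30.8 CPM in the Ghrl and Gcg cluster. In the Sst and Pyy cluster (168 cells), the Ppy cluster (98 cells) and acinar-like cells (533 cells) both were at 0. Relative to alpha-defensins, Lyz1 stood at 57.2, 113 and 63.0 UMIs per 100 in these 3 endocrine clusters, and at 1.72 in the Defa24 and Defa17 cluster. Few cells carried the UMIs: Lyz1 was in 28 of 226 Cck cells, and 5 cells held 58.3% of them. Thinned to 2000 UMIs, Lyz1 was in 3.51% of enteroendocrine-like and 0 of 513 acinar-like cells, which by the count of 3 allows a share of cells with a UMI of up to 0.585% (unthinned 8.69% and 0%, median depth 7335 and 12339 UMIs). The enteroendocrine-like class as a whole held 43.3% of Lyz1 and 52.8% of Ang4 UMIs of the fetal library, and it had 0 UMIs of Itln1 or Mptx2.

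**Figure D5:**
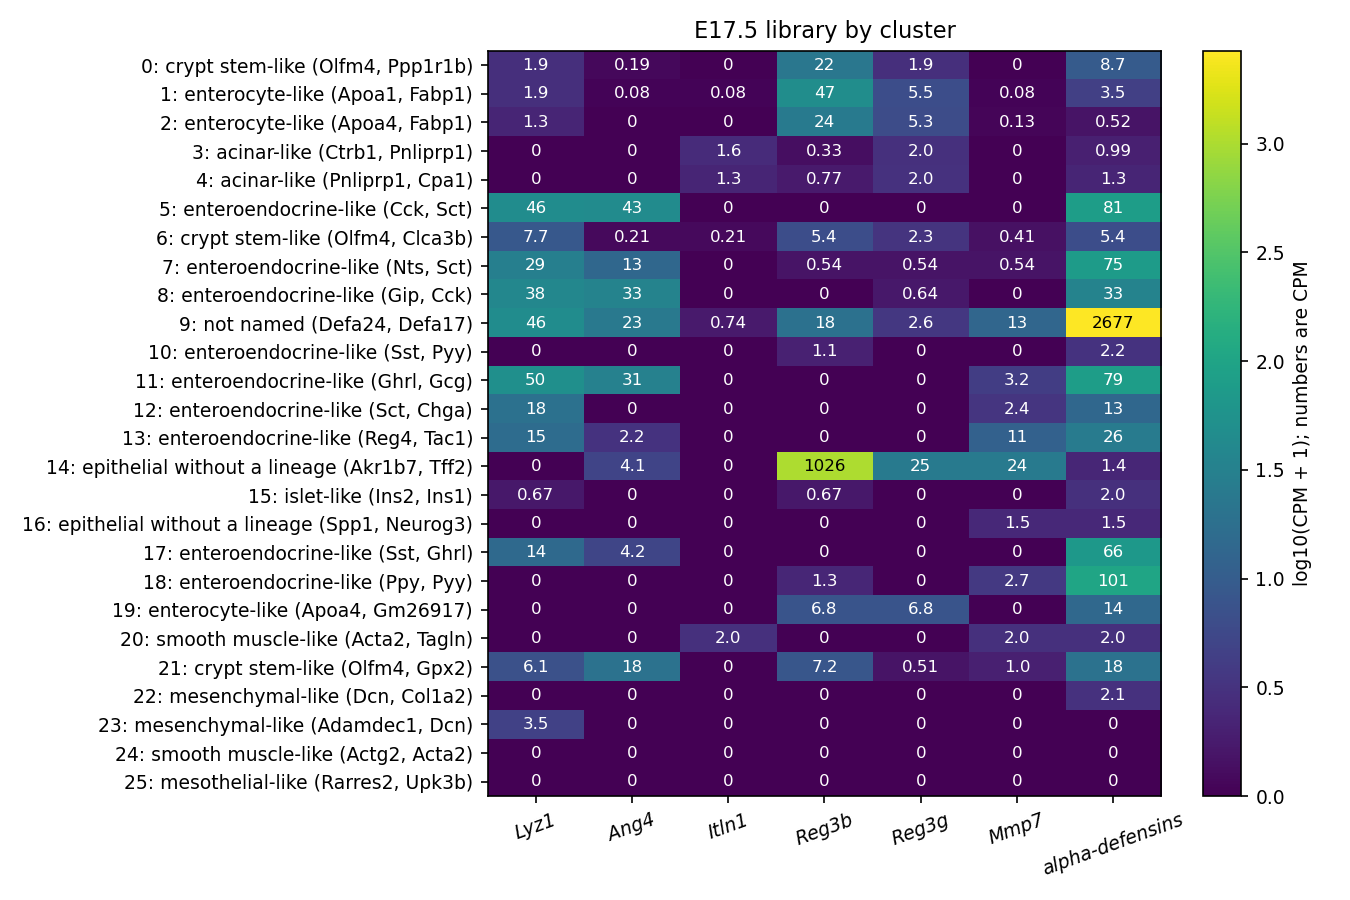
CPM of 6 of the genes and of the alpha-defensin sum (columns) in the clusters of the E17.5 library (lines of the grid, each with its 2 leading genes); the colour is log10(CPM + 1). Lyz1 and Ang4 appear in the Cck, Gip and Ghrl clusters as well as in the Defa24 cluster, and Reg3b peaks in cluster 14.

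Reg3b at E17.5 came from elsewhere. An epithelial cluster without a lineage name (cluster 14, 148 cells, led by Akr1b7, Tff2 and Spp1) held it at 1026 CPM (974 to 1079) and alone gave 52.0% of the library's Reg3b. In that cluster 26 of 148 cells had Reg3b, 5 cells held 80.1% of 1511 UMIs, and the highest cell gave it 3.70% of its UMIs. Mmp7 was also present there, in 23 of 148 cells at 23.8 CPM, with Lyz1 at 0. Enterocyte-like cells had Reg3b at 38.1 CPM and crypt stem-like cells at 16.8 CPM, and endocrine cells had 3 UMIs in all. Reg3g was highest in cluster 14 (25.1 CPM), followed by enterocyte-like cells at 5.41 CPM. From E17.5 to the adult, enterocyte-like Reg3b was 68.0-fold higher (63.2 to 73.2) and Reg3g 172-fold (142 to 209.9). Of the 7 genes 5 had enough UMIs in this class and all 5 were at least 2-fold higher, against 8.25% of 10323 genes higher and 17.6% lower. Beside Reg3b and Reg3g these were Lyz1 (34 to 115 UMIs), Itln1 (1 to 142) and Ang4 (1 to 448). In the adult class 5 cells held 94.9% of the Ang4 and 59.9% of the Itln1 UMIs. The part of free RNA in these levels was not tested, and the comparison was not recomputed under other clusterings.

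For each gene, the genes of most similar level were sought over 19 class-by-library units among 12866 genes. For the granule genes these were alpha-defensins: Defa24 for Lyz1 (Pearson r of log2(CPM + 1) 0.98) and Ang4 (0.97), Defa29 for Mptx2 (0.99) and Defa30 for Itln1 (0.97). For Mmp7 the nearest were Ccl6 (0.92), Gm14851 and Defa26. For Reg3b they were Noxo1 (0.87), Gpx2 and Tstd1, and for Reg3g Duox2 (0.86), Muc2 and Guca2b. Genes with Gm or Rik names were left out of the search unless they are alpha-defensins. The Paneth-like units were named from a marker list made mostly of alpha-defensins. The units of a library also share its depth and its free RNA, so these correlations are descriptions.

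Other antimicrobial and crypt defence genes, a list of 42 of which 40 are in the files, was compared in the same way. At E17.5 against E12.5, 14 of 20 with enough UMIs were at least 2-fold higher and 2 lower, with a median log2 ratio of 2.24 beside -0.19 over all genes, where 15.9% were higher and 16.2% lower. In the adult against E17.5, 13 of 26 were higher and 5 lower, against 14.1% and 15.2% of all genes. Reg3a, the third intestinal Reg3 lectin, went from 0.182 to 24.9 CPM, and Mptx1, the paralog of Mptx2, went the other way, from 7.81 to 0.783 CPM. After irradiation 9 of 25 were higher and 5 lower, with a median log2 ratio of 0.43 beside -0.04 and shares of 3.07% and 5.33% over all genes. Among these Zg16, a goblet lectin, went from 31.9 to 6532 CPM, and the mucin Muc2 from 54.1 to 647 CPM. Against the direction of Reg3b and Reg3g, Reg3a went from 24.9 to 2.75 CPM and Reg1 from 305 to 24.7 CPM.

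Among 25 regulators of Paneth cells and of the Reg3 genes, 3 of the 21 with enough UMIs were at least 2-fold higher and 3 lower after irradiation in the library sums, against 3.07% and 5.33% of all genes. Of the 3 higher genes, Il33, which encodes an alarmin cytokine, went from 0.595 to 17.2 CPM, and Atoh1, the secretory lineage factor, from 4.61 to 14.8 CPM. The 3 lower genes are not named here. A goblet-like class was named in the irradiated library and not in the adult, so these sums cover different cells. Stat3, a transcription factor of cytokine signalling, went from 34.2 to 56.1 CPM, which is under 2-fold. In the deepest Paneth-like cluster 2 of 11 were higher, Atoh1 (16.3 to 42.6 CPM) and the secretory factor Xbp1 (51.3 to 121.8 CPM). The 2 that were lower are Fzd5, a Wnt receptor of Paneth cells (14.3 to 3.21 CPM), and Ephb3, which positions Paneth cells (33.9 to 9.77 CPM). Beside 7.66% and 10.2% of all genes in this cluster, these counts are too small to be read for the list.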

How the data were processed

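The authors deposited, for each library, a matrix of raw UMI counts per gene and cell barcode, without normalization; per the submitters' processing notes these come from Cell Ranger 3.1.0 and mm10, the build annotated here as GRCm38. The rule by which the authors chose barcodes is not given in the sources used here. Gene names were read from the deposited files, and of 31053 Ensembl IDs 30934 matched GENCODE M21.

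Barcodes with under 500 genes or over 20% mitochondrial UMIs were removed. Scrublet (scanpy 1.11.5) scored doublets, and the top 0.8% per 1000 barcodes formed a group of their own; its automatic threshold called at most 0.174%, so it was not used. Each library was clustered alone with the Leiden method (resolution 1, 2000 variable genes, 30 components, 20 neighbours; leidenalg 0.10.2), leaving out the 7 genes and their close relatives. A cluster took the marker list with the highest scaled mean, if at least 0.4, and stayed unnamed when its leading genes went against the name. These thresholds were set after clusters had been seen. Marker lists, gene lists and the 7 genes were chosen with earlier results of these data known.

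Levels are UMIs per 1000000. Ratios use log2((CPM + 1)/(CPM + 1)), over genes reaching 50 UMIs in one of the libraries, and a gene counts as passing at 2-fold. Shares of cells were taken after thinning to 2000 UMIs. Ratios carry conditional binomial 95% intervals. The ratio code was tested on simulated Poisson counts, which the intervals assume, with 200 genes changed 4-fold. The intervals held the true value for 95.0% of these in the irradiated over adult comparison (12913 genes). That checks the code and not the spread between cells or animals. Each group is 1 library, so no test between groups was made. Named were the 7 genes, clusters by their leading genes, and for each gene the 3 of highest correlation. List genes are named if they reached 50 UMIs in a library compared, and which of them appear was chosen after their values had been seen. Sequences and motifs were read with biopython 1.88, and figures drawn with matplotlib 3.10.9. Depth per library ran from 31908663 to 89064972 UMIs in kept cells. Alternatives were other cell filters, doublets removed, other totals, TMM factors (edgeR 4.0.16), pseudocounts, UMI minimums, clustering with the 7 genes and other resolutions.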

Additional observations from a re-analysis of the deposited data

Results flagged for a closer look

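For 3 genes the change from adult to irradiated adult went in opposite directions in different cell classes, beyond counting error in both. Whether the classes differ was not tested, since there is 1 library per group. Lyz1 was 30.9 times its adult level in enterocyte-like cells and 0.901 times in tuft-like cells. The enterocyte-like value rests on 3 cells in which Lyz1 took over 0.5% of UMIs, and without them Lyz1 was at 109 CPM against 33.9 CPM in the adult class. With the 7 genes kept in the clustering, or at resolution 0.5 without them, its log2 ratio was 2.38 in place of 4.91. The irradiated class has 1 enterocyte marker among its 10 leading genes, so the classes compared may not be the same cells. Mptx2 was at 1.13 times in Paneth-like cells and 0.313 times in tuft-like cells. The Paneth-like direction is not firm: its log2 ratio was 0.17, against 0.04 in the deepest cluster and -0.03 with the stricter cell filter, and the median cell of the deepest cluster went from 0.572% to 0.299% of UMIs. Ang4 was at 1.65 times in enterocyte-like cells and 0.514 times in Paneth-like cells. Without the same 3 enterocyte-like cells its level there was 94.1 CPM against 132 CPM in the adult. Relative to alpha-defensins, tuft-like Lyz1 stood near its Paneth-like level in both libraries. Tuft-like Mptx2 was above that level in the adult and below it after irradiation. Alpha-defensins in tuft-like cells were at 5625 CPM in the adult and 2707 CPM after irradiation. The part of free RNA in these tuft-like levels was not tested. The tuft-like ratios of Lyz1 and Mptx2 were not recomputed under other cell filters or clusterings. Under those the irradiated tuft-like class ran from 91 to 607 cells, against 461 in the main setting.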

How the results depend on the processing

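No paired analysis was possible because each group has 1 library and the labels give no shared animal. With 10 CPM added in place of 1, the genes at least 2-fold higher and lower were 922 and 883 for E17.5 over E12.5 (2329 and 2372 with 1 CPM), 770 and 858 for adult over E17.5 (1991 and 2143), and 133 and 175 for irradiated over adult (397 and 688); of the 7 genes, 1 was then higher at E17.5 over E12.5 in place of 5. When every cell's CPM was averaged, 3 of the 7 were higher in the irradiated library in place of 5, and 48.5% of all genes past 2-fold were higher in place of 36.6%. The other 136 counts under an alternative stayed within 1.5 times. The ratios recomputed were those of the libraries and the irradiated over adult ratios of Paneth-like and enterocyte-like cells. None of these that was past 2-fold with the main settings changed sign. Ratios in enteroendocrine-like and tuft-like cells, and adult over E17.5 ratios within classes, were not recomputed. Under 2-fold, Mptx2 went from 0.59 to -0.36 in the irradiated library with averaged CPM, and from 0.11 to -2.36 in enterocyte-like cells with the 7 genes kept in the clustering (-2.35 at resolution 0.5). Across alternatives the irradiated over adult log2 ratio ran from 2.58 to 3.78 for Reg3g, 1.24 to 2.73 for Reg3b and 1.70 to 2.11 for Mmp7. The median over all genes went from -0.19 to -0.08 with TMM factors for E17.5 over E12.5, and leaving alpha-defensins and the 7 genes out of the total moved it from -0.09 to 0.03 for adult over E17.5. Leaving out mitochondrial and ribosomal protein genes moved that median to -0.21. No enterocyte-like class was found under the stricter cell filter, so its levels have no such check. Depth limits the fetal libraries, where Itln1 and Mptx2 had at most 17 UMIs.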

Other observations

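The barcodes that the filter left out also held the 7 genes. In the irradiated library 2812 such barcodes had Reg3b at 834 CPM, above the 734 CPM of kept cells, while Lyz1 was at 915 CPM against 11288 CPM. In the adult 2499 such barcodes had Reg3b at 196 CPM and Lyz1 at 821 CPM, against 296 and 4352 CPM in kept cells.

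The unnamed irradiated cluster 4 (206 cells, median 1399.5 UMIs, led by Clu, Lgals3, Ly6d and Akr1b8) had Lyz1 at 2174 CPM, Reg3g at 401 CPM and Reg3b at 398 CPM, with alpha-defensins at 14871 CPM. The unnamed adult cluster 11 (100 cells, median 47132.5 UMIs), led by stem and cell cycle genes, had Lyz1 at 315 CPM and Reg3b at 20.02 CPM.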
